A study of Caenorhabditis elegans with 6 samples.

Results

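The genes described here encode proteases and protease inhibitors that act in the molt of Caenorhabditis elegans, without the astacin metalloproteases. They were chosen by name as acn-1, cpl-1, cpz-1, bli-4, bli-5, mlt-11, adt-2 and kpc-1. Every probe set of the array whose annotation gives one of these symbols and no other gene was taken, which gave 25 probe sets for 8 genes, out of 22548 probe sets tested. bli-4 has 9 of them, mlt-11 and kpc-1 have 4 each, acn-1, cpl-1 and adt-2 have 2 each, and cpz-1 and bli-5 have 1 each. Of the 25, 17 carry an identifier that ends in _s_at or _x_at, which marks probes that can also match other transcripts. Expression was measured in wild-type N2 hermaphrodites at the third larval stage (L3), on 3 arrays of active L3 larvae collected 32 hours after feeding began and 3 arrays of larvae in L3 lethargus collected at 37 hours. Lethargus is the pause in movement and feeding that comes with the molt, and larvae were picked by hand for that behaviour. Both groups were grown at 20 °C on the bacterial strain DA837 after arrest at hatching, and each array came from its own pool of 200 animals. Age, phase of the molt and behaviour differ together between the groups and cannot be told apart.

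At each molt the epidermis lays down a new cuticle under the old one and then loosens and sheds the old one. Proteases take part at both steps: they trim collagens and other secreted proteins on the way to the new cuticle, and they cut the ties that hold the old one. Inhibitors carried in the same matrix limit where and when that cutting happens. Many of these genes are transcribed in pulses, once in each larval stage.

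Of the 25 probe sets, 1 rose in lethargus and 0 fell, where a call is an adjusted p of 0.05 or less from limma over all probe sets. The riser was a probe set of bli-4, which encodes a proprotein convertase that processes cuticle collagens, and it was 2.37-fold higher. Over all probe sets 0.754% were called higher and 0.213% were called lower. For acn-1, cpz-1, cpl-1 and adt-2 at least 1 probe set was lower on every lethargus array than on any L3 array, without passing the test. Such a complete separation downward held for 5 of the 25 probe sets, against 6.57% of all probe sets, and a separation upward held for 2, against 7.81%. The same 5 had an unadjusted p under 0.05 and a lower mean, a criterion that 5.11% of all probe sets met, and the bli-4 riser alone did so upward, against 5.44%. Of the 25 changes 19 were negative, with a median of -0.10, while 46.4% of all probe sets had a negative change and their median was 0.016. Probe sets of one gene share its transcripts, so the 25 are not 25 separate observations.

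The array medians lay between 7.09 and 7.19 on the log2 scale, and no pair of arrays held the same values. Bacillus subtilis control probe sets, which match no worm transcript, served as a guide to background and reached 5.73. L3 replicate 3 differed from the remaining L3 arrays, and 20 of the 25 probe sets were lower there than on both of them, against 37.1% of all probe sets. Without it limma called 5.04% of all probe sets. The median of 6 sperm markers was 6.65 on that array, while L3 replicates 1 and 2 had 3.91 and 3.82 and the lethargus arrays 5.14 to 6.03. Apart from 6.65 and 6.03 these medians lay below the highest control, and 2 of the 6 markers were within background. The part of this difference in the results was not tested. Of 40 markers of epidermis, intestine, body wall muscle, pharynx, neurons, germline and sperm, limma called 0 higher and 0 lower, and 2 were higher and 2 lower at an unadjusted p under 0.05. Both lower ones were among the 7 epidermal markers and both higher ones among the 5 pharyngeal markers. The epidermal list had a median change of 0.10 and the pharyngeal list of 0.26, and their part in the lower values of acn-1, cpz-1 and cpl-1 below was not tested. For the 7 epidermal markers the array medians ran from 8.93 to 9.49 in L3 and from 8.78 to 9.49 in lethargus. Of these markers, che-14 and bli-1 are also among the molting partners below and elt-3 among the molting regulators. bli-1 alone ran from 5.18 to 9.49 within lethargus. The medians therefore do not measure the amount of epidermis alone. In whole animals, fewer cells of a type and less RNA per cell cannot be told apart.

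acn-1 encodes a protein related to angiotensin-converting enzyme that lacks the residues for catalysis and is needed in the epidermis for molting. On probe set 173654_at its log2 levels were 11.83, 11.43 and 10.80 on the L3 arrays. They were 10.38, 10.05 and 10.54 on the lethargus arrays. All lethargus arrays lay below all L3 arrays, and the nearest pair, L3 replicate 3 and lethargus replicate 3, was 0.26 apart. The group means were 11.35 ± 0.52 in L3 and 10.32 ± 0.25 in lethargus (SD, n = 3 each). The change of -1.03 (SE 0.27, adjusted p 0.174) corresponds to a level 2.04-fold lower. On probe set 188527_s_at the L3 levels were 10.43, 10.03 and 8.80 and the lethargus levels 7.91, 7.56 and 8.70. Here too the groups did not overlap, by 0.11, and L3 replicate 3 lay closer to lethargus than to the other L3 arrays. The change was -1.70 (SE 0.45, adjusted p 0.180), or 3.25-fold lower. Both probe sets of acn-1 were called lower when L3 replicate 3 was left out, with changes of -1.31 (adjusted p 0.0121) and -2.17 (adjusted p 0.00938). Without L3 replicate 3, 3 of the 25 probe sets were called lower and 1 higher, against 2.50% and 2.54% of all probe sets. Leaving out any other array gave adjusted p-values from 0.183 to 0.575 for acn-1.

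**Figure D1:**
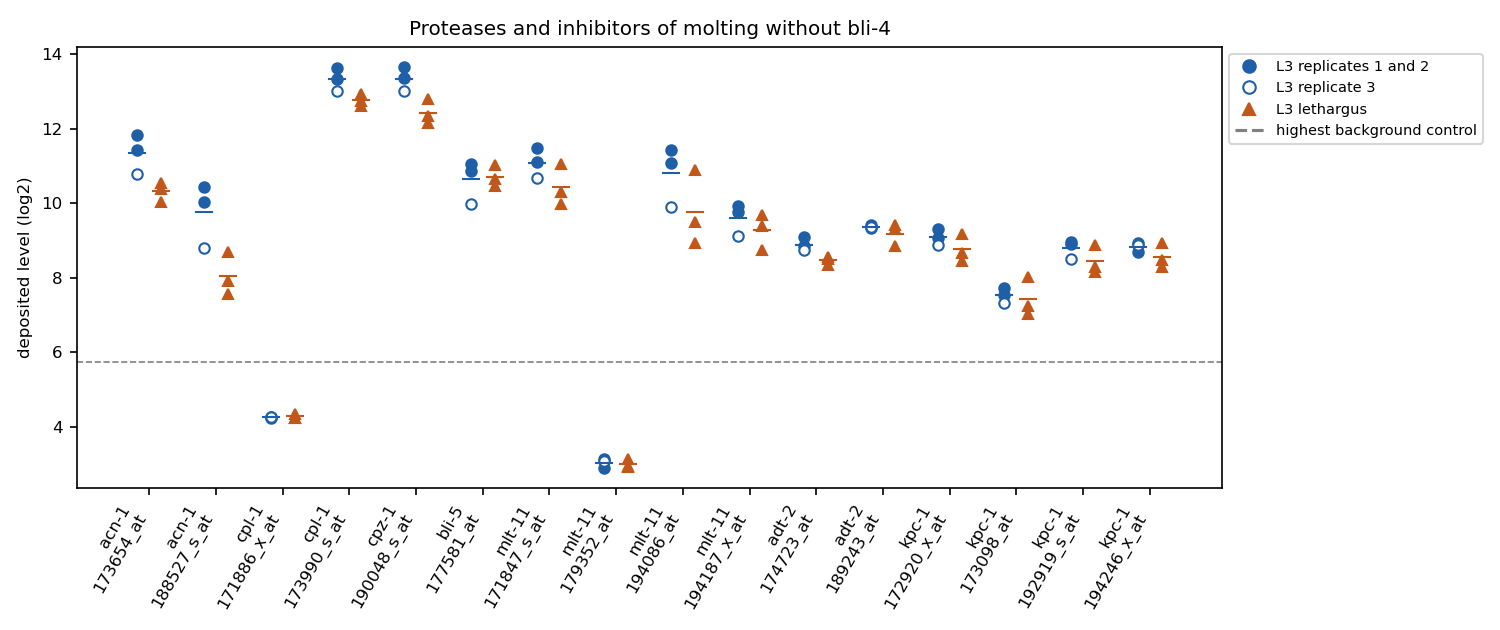
Deposited log2 levels (vertical axis) of the 16 probe sets of the genes other than bli-4, with circles for L3 arrays, an open circle for L3 replicate 3, triangles for lethargus arrays, short lines for group means and a dashed line at the highest background control, 5.73. Both probe sets of acn-1 and the single probe set of cpz-1 separate the groups, while the lethargus triangles of mlt-11 spread from 8.94 to 10.89 on probe set 194086_at and reach into the L3 range.

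cpz-1 encodes cathepsin Z, a cysteine protease that is found in the cuticle and needed for molting. It has 1 probe set, with levels of 13.66, 13.36 and 13.01 in L3 and of 12.80, 12.15 and 12.35 in lethargus. These did not overlap, and L3 replicate 3 was again the lowest L3 array. The group means were 13.34 ± 0.33 in L3 and 12.43 ± 0.33 in lethargus (SD, n = 3 each). The change was -0.91 (SE 0.23, adjusted p 0.154), or 1.88-fold lower. Without L3 replicate 3 cpz-1 was the third of the probe sets called lower, with a change of -1.08 and an adjusted p of 0.0353. With any other array left out its adjusted p lay between 0.201 and 0.481.

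cpl-1 encodes cathepsin L, a cysteine protease known for processing yolk proteins in embryos and also present in the larval epidermis. Its probe set 173990_s_at gave 13.64, 13.34 and 13.02 in L3 and 12.93, 12.62 and 12.75 in lethargus. The groups were separate by 0.09, and the change was -0.57 (SE 0.18, adjusted p 0.292), or 1.48-fold lower. The change without L3 replicate 3 was -0.72, with an adjusted p of 0.0632. The other probe set of cpl-1, 171886_x_at, lay between 4.23 and 4.34 on all 6 arrays, no brighter than the background controls, and carries no information on the gene here.

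Of 12 cysteine cathepsins measured, cpl-1 and cpz-1 included, 0 rose and 0 fell by limma, 0 and 4 at an unadjusted p under 0.05, and 9 had a negative change. At that unadjusted p 5.44% of all probe sets were higher and 5.11% lower. The median change was -0.13, against 0.020 over the brightest probe sets of 17118 genes. The lethargus arrays lay below all L3 arrays for 4 of the 12, against 6.44% of all genes. Beside cpl-1 and cpz-1 these were cpr-1 and cpr-6, which encode cathepsin B-like proteases and were singled out after their values were seen. cpr-6 had a change of -0.82 (adjusted p 0.249) and cpr-1 of -0.43 (adjusted p 0.344). cpr-6 was also lower on L3 replicate 3, at 12.24 against 12.94 and 12.85, but cpr-1 was highest there, at 11.63 against 11.49 and 11.27. The cystatins, which inhibit cysteine cathepsins, had positive changes. cpi-1 had levels of 11.42, 11.47 and 11.70 in L3 and 12.17, 11.85 and 11.92 in lethargus, a change of 0.45 (SE 0.14, adjusted p 0.290). The brightest probe set of cpi-2 had 0.17 (adjusted p 0.749) and the other had 0.26 (adjusted p 0.617). Neither cystatin passed the test, although the brightest probe set of each was higher on every lethargus array than on any L3 array. Such a separation upward held for 8.18% of all genes. Among 10 aspartic cathepsins 0 rose and 0 fell, and 0 did so at an unadjusted p under 0.05, with a median of -0.03, and the smallest p was that of asp-12, with a change of -0.23 (adjusted p 0.772).

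bli-4 encodes a proprotein convertase of the kexin and subtilisin family, and its mutants have fluid-filled blisters in the cuticle. The gene gives several protein forms that share the protease part and differ at their carboxyl ends. Of its 9 probe sets 1 rose. On probe set 175669_at the log2 levels were 6.37, 6.31 and 6.14 in L3. In lethargus they were 7.57, 7.37 and 7.61. The lowest lethargus array stood 1.01 above the highest L3 array, and the SD within a group was 0.12 in L3 and 0.13 in lethargus (n = 3 each). The change was 1.25 (SE 0.13, adjusted p 0.00715). This is the sole bli-4 probe set whose identifier is not marked as able to match other transcripts. It is also the dimmest of the bli-4 probe sets that lay above the background controls on every array, and its highest L3 level, 6.37, stood not far above the highest control at 5.73, where RMA values can understate a fold.

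The other 8 bli-4 probe sets had changes from -0.10 to 0.13, 5 of them negative and 3 positive, with adjusted p-values from 0.907 to 0.987. Their unadjusted 95% intervals reached from -0.48 to 0.48 at the widest. The brightest, 172006_x_at, gave 10.78, 10.88 and 10.59 in L3 and 10.60, 10.70 and 11.06 in lethargus, a full overlap. Probe set 191212_s_at was higher on every lethargus array, yet by only 0.0058 at the nearest pair, with a change of 0.10 (adjusted p 0.914). Probe set 175666_s_at lay between 5.32 and 5.87, with 2 of 6 arrays above the highest control. Within each array, the level of 175669_at minus the mean of the other 8 was -2.60, -2.56 and -2.61 in L3 and -1.26, -1.40 and -1.33 in lethargus. The group means of that difference were 1.26 apart, which is a description without a test, since 175669_at was singled out by its change on these arrays. The annotation gives a GenBank entry for 4 of the 9 probe sets, the riser among them. Which exons or protein forms each probe set covers was not analysed here.

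**Figure D2:**
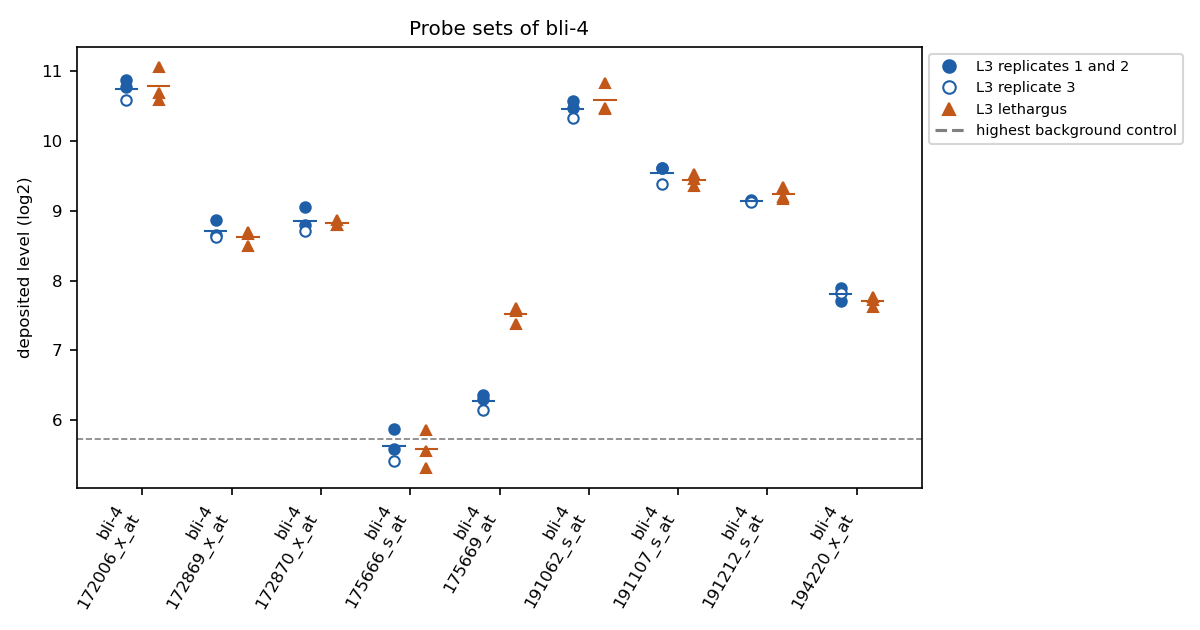
Deposited log2 levels (vertical axis) of the 9 probe sets of bli-4, with circles for L3 arrays, an open circle for L3 replicate 3, triangles for lethargus arrays, short lines for group means and a dashed line at the highest background control. Probe set 175669_at moves from 6.27 to 7.52 between the group means, whereas the means of each of the other 8 lie within 0.13 of each other.

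The rise of 175669_at was 1.18 without L3 replicate 3, with an adjusted p of 0.00563. Without lethargus replicate 1 the change was 1.22 and its adjusted p was 0.0501, just past the threshold. With any other array left out its adjusted p was below the threshold. On L3 replicate 3 this probe set lay away from lethargus: its log2 difference from the mean of L3 replicates 1 and 2 was -0.20 there and 1.18 in lethargus.

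kpc-1 encodes a furin-like proprotein convertase best known for its part in the branching of sensory dendrites. All 4 of its probe sets had lower means in lethargus, with changes of -0.10 to -0.35 and adjusted p-values from 0.737 to 0.975. On the brightest, 172920_x_at, the levels were 9.06, 9.31 and 8.89 in L3 and 8.45, 8.68 and 9.17 in lethargus. The groups overlapped through lethargus replicate 3, and the change was -0.32 (SE 0.21, unadjusted 95% interval -0.81 to 0.18). On 192919_s_at the change was -0.35 and on 194246_x_at -0.27, with lethargus replicate 3 again highest in its group. Without lethargus replicate 1 these 3 changes shrank to -0.16 on 172920_x_at, -0.20 on 192919_s_at and -0.13 on 194246_x_at, and without lethargus replicate 3 they were -0.52, -0.57 and -0.45. Probe set 173098_at differed in pattern, with lethargus replicate 1 highest, at 8.03, against 7.02 and 7.23 for the other lethargus arrays, and its change ran from -0.40 to 0.11 with arrays left out. egl-3 and aex-5 encode the remaining kexin-like convertases, which act on neuropeptides and in the defecation rhythm. Their brightest probe sets had changes of 0.03 (adjusted p 0.984) and 0.05 (adjusted p 0.986). Of 6 genes of the convertase list, which also holds the carboxypeptidase gene egl-21 and the chaperone gene sbt-1, 0 rose and 0 fell, also at an unadjusted p under 0.05, with a median of -0.014. In that list bli-4 stands by its brightest probe set, so its riser is not counted.

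mlt-11 encodes a large secreted protein with Kunitz domains, the fold of many serine protease inhibitors, and its loss leaves larvae caught in the old cuticle. Probe set 194086_at gave 11.43, 11.07 and 9.91 in L3 and 8.94, 9.50 and 10.89 in lethargus. Both groups were spread widely, since L3 replicate 3 lay low and lethargus replicate 3 lay near the upper L3 arrays. The group means were 10.80 ± 0.80 in L3 and 9.78 ± 1.00 in lethargus (SD, n = 3 each). The change was -1.03 (SE 0.56, adjusted p 0.643). Probe set 171847_s_at gave 11.48, 11.10 and 10.68 in L3 and 9.98, 10.31 and 11.06 in lethargus, with a change of -0.64 (adjusted p 0.573). Probe set 194187_x_at had -0.33 (adjusted p 0.854), and its groups overlapped too. The fourth, 179352_at, lay between 2.90 and 3.14, no brighter than the controls. The change on 194086_at without L3 replicate 3 was -1.47 (adjusted p 0.186), and without lethargus replicate 3 it was -1.58 (adjusted p 0.280). Without lethargus replicate 1 it shrank to -0.61 (adjusted p 0.807). On 171847_s_at the change ran from -0.40, also without lethargus replicate 1, to -0.94, and on 194187_x_at from -0.069, without lethargus replicate 2, to -0.57.

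bli-5 also carries a Kunitz domain, and its mutants have blistered cuticles. Its single probe set gave 10.87, 11.06 and 9.99 in L3 and 10.65, 10.46 and 11.02 in lethargus. The group means were nearly equal, at 10.64 ± 0.57 (SD, n = 3) and 10.71 ± 0.29 (n = 3), with a change of 0.07 (SE 0.29, adjusted p 0.986) and an unadjusted 95% interval from -0.61 to 0.75. These arrays leave room for a difference up to those bounds in either direction. The lowest of all 6 arrays was L3 replicate 3, and without it the change was -0.25 (adjusted p 0.700). Of 14 serine and cysteine protease inhibitors measured, 0 rose and 0 fell, 1 and 0 at an unadjusted p under 0.05, with a median of 0.03. The groups did not overlap upward for 3 of them, cpi-1, cpi-2 and the serpin gene srp-8, against 8.18% of all genes. srp-8 was named after its values were seen and was no brighter than the highest control on any array.

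adt-2 encodes a secreted metalloprotease of the ADAMTS family that shapes the cuticle and body size. Probe set 174723_at gave 8.85, 9.08 and 8.74 in L3 and 8.55, 8.35 and 8.50 in lethargus. The groups were 0.19 apart, with a change of -0.43 (SE 0.14, adjusted p 0.295). Its other probe set, 189243_at, gave 9.33, 9.41 and 9.36 in L3 and 8.85, 9.41 and 9.31 in lethargus, which overlap, with a change of -0.18 (adjusted p 0.872). Among 9 ADAMTS and ADAM genes 0 rose and 0 fell, 1 and 0 at an unadjusted p under 0.05, and the smallest p belonged to adt-3, a relative of adt-2. adt-3 had a change in the opposite direction on both its probe sets, 1.12 (adjusted p 0.175) on the brightest and 1.19 (adjusted p 0.0739) on the other. The brightest gave 9.08, 9.47 and 8.46 in L3 and 9.95, 9.86 and 10.56 in lethargus, so the groups did not overlap. Of 8 matrix metalloproteases and metalloprotease inhibitors 0 rose and 0 fell, also at an unadjusted p under 0.05, with a median of -0.13, and zmp-1 had the smallest p (change -0.48, adjusted p 0.488).

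**Figure D3:**
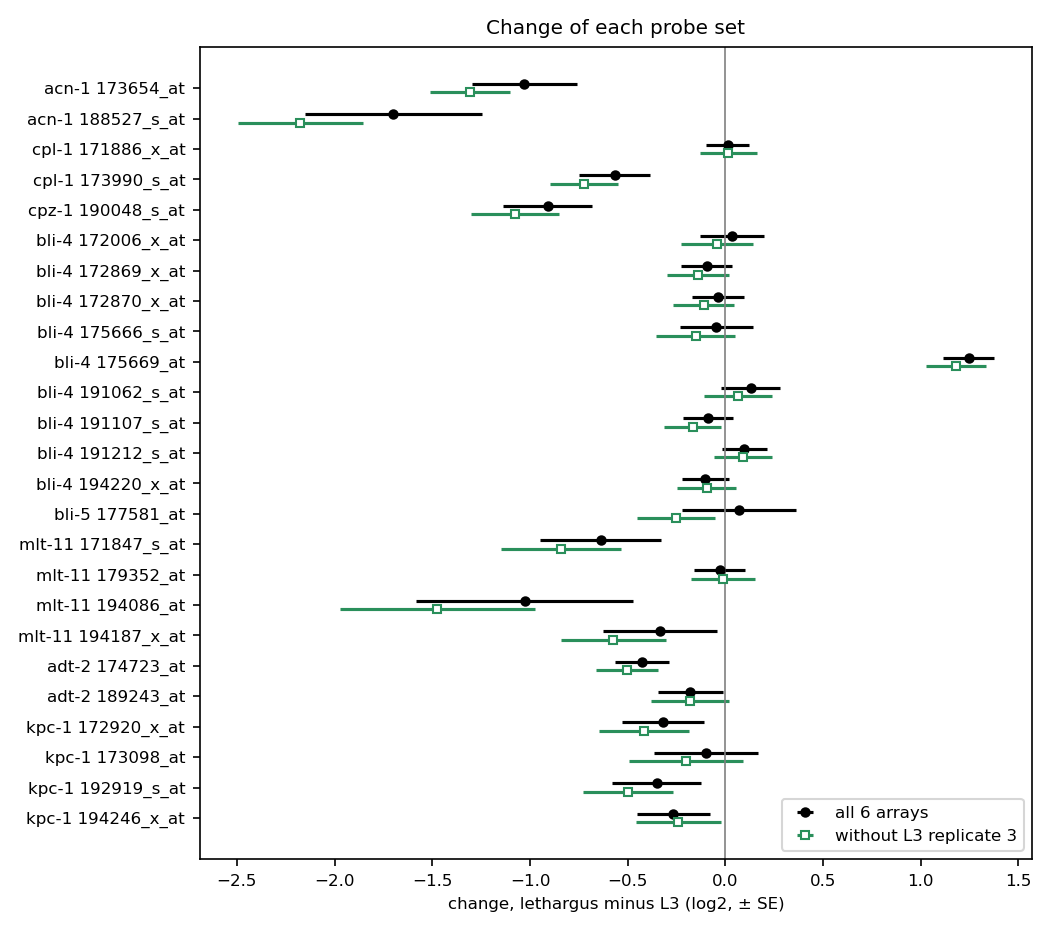
Change of each of the 25 probe sets, lethargus minus L3 on the log2 scale (horizontal axis) with its standard error, from all 6 arrays (filled circles) and without L3 replicate 3 (open squares). bli-4 175669_at stands alone on the right at 1.25, and the acn-1 probe sets lie farthest to the left at -1.03 and -1.70, with mlt-11 194086_at also at -1.03.

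The place of L3 replicate 3 differed from gene to gene. Log2 differences from the mean of L3 replicates 1 and 2 were taken for that array and for the lethargus mean. Both differences subtract the same 2 arrays, which by itself tends to give them the same sign, so they are given as a description. For acn-1 they were -0.83 on L3 replicate 3 and -1.31 in lethargus on 173654_at, and -1.43 and -2.17 on 188527_s_at. For cpz-1 they were -0.50 and -1.08, so L3 replicate 3 lay between the other L3 arrays and lethargus. For mlt-11 on 194086_at they were nearly equal, at -1.34 and -1.47. For bli-5 they were -0.97 and -0.25, and there L3 replicate 3 lay beyond lethargus. Lethargus replicate 3 was the highest of its group in 15 of the 25 probe sets, against 39.6% of all probe sets.

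**Figure D4:**
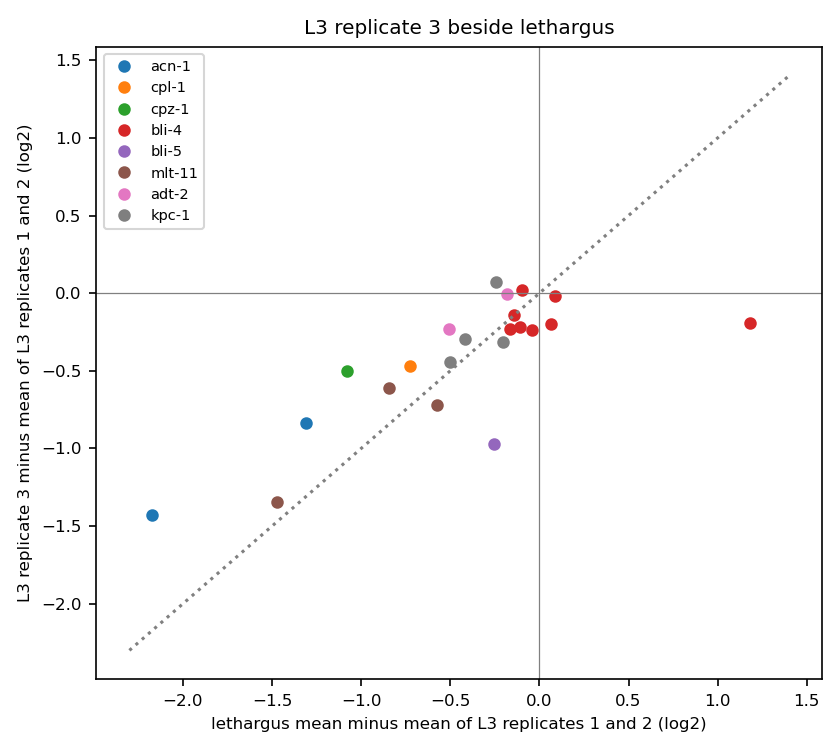
Each point is 1 of the 22 probe sets above the highest background control on all 6 arrays, with the lethargus mean (horizontal axis) and L3 replicate 3 (vertical axis) both given relative to the mean of L3 replicates 1 and 2 on the log2 scale, and a dotted line where both are equal. acn-1, mlt-11, cpz-1 and cpl-1 lie at negative values on both axes, as do most of the other points, bli-5 and both adt-2 probe sets among them. bli-4 175669_at lies at 1.18 and -0.20. The shared reference of both axes tends to give points the same sign even where levels do not change.

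Other genes of molting show where these proteases stand. Of 28 partners in molting and cuticle assembly 1 rose and 2 fell, 2 and 14 at an unadjusted p under 0.05, with a median change of -0.37. Over all probe sets 5.44% were higher and 5.11% lower at that unadjusted p. Lethargus arrays lay below all L3 arrays for 9 of the 28, against 6.44% of all genes, and above them for 3, against 8.18%. Of 14 molting regulators 0 rose and 1 fell, 0 and 4 at an unadjusted p under 0.05, with a median of -0.11. Among all genes 0.783% were called higher and 0.251% lower. mlt-10, a gene whose mutants fail to molt properly, fell by 2.67 on the log2 scale (adjusted p 0.0421), and mlt-9 fell by 2.21 (adjusted p 0.0388). bed-3, a zinc finger gene needed for molting, fell by 2.54 (adjusted p 0.0379). The falls of all 3 lost their call when any array other than L3 replicate 3 was left out, with adjusted p-values from 0.0854 to 0.212. The cuticle peroxidase gene mlt-7 rose by 1.78 (adjusted p 0.00869), a call that ended when L3 replicate 2, lethargus replicate 1 or lethargus replicate 3 was left out (0.0531 to 0.0558). The other probe sets of mlt-10, mlt-9 and mlt-7 were not called (adjusted p 0.175, 0.0816 and 0.130). That of mlt-7 was above the highest control on 0 of 6 arrays, so it says little about the gene. That of mlt-10 was above the control on the 3 L3 arrays, at 7.31, 7.34 and 5.95. In lethargus that probe set gave 5.64, 4.11 and 5.22, all below the control, and its change was -1.88. That of mlt-9 was above the control on all 6, with a change of -2.09. Of the nuclear receptor genes known to drive acn-1 in the epidermis, the brightest probe set of nhr-23 gave 0.11 (adjusted p 0.953). That of nhr-25 gave 0.0029 (adjusted p 0.999). Their unadjusted 95% intervals ran from -0.36 to 0.58 for nhr-23 and from -0.63 to 0.63 for nhr-25. The other probe sets gave -0.014 for nhr-23 (adjusted p 0.997) and -0.13 for nhr-25 (adjusted p 0.955).

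**Figure D5:**
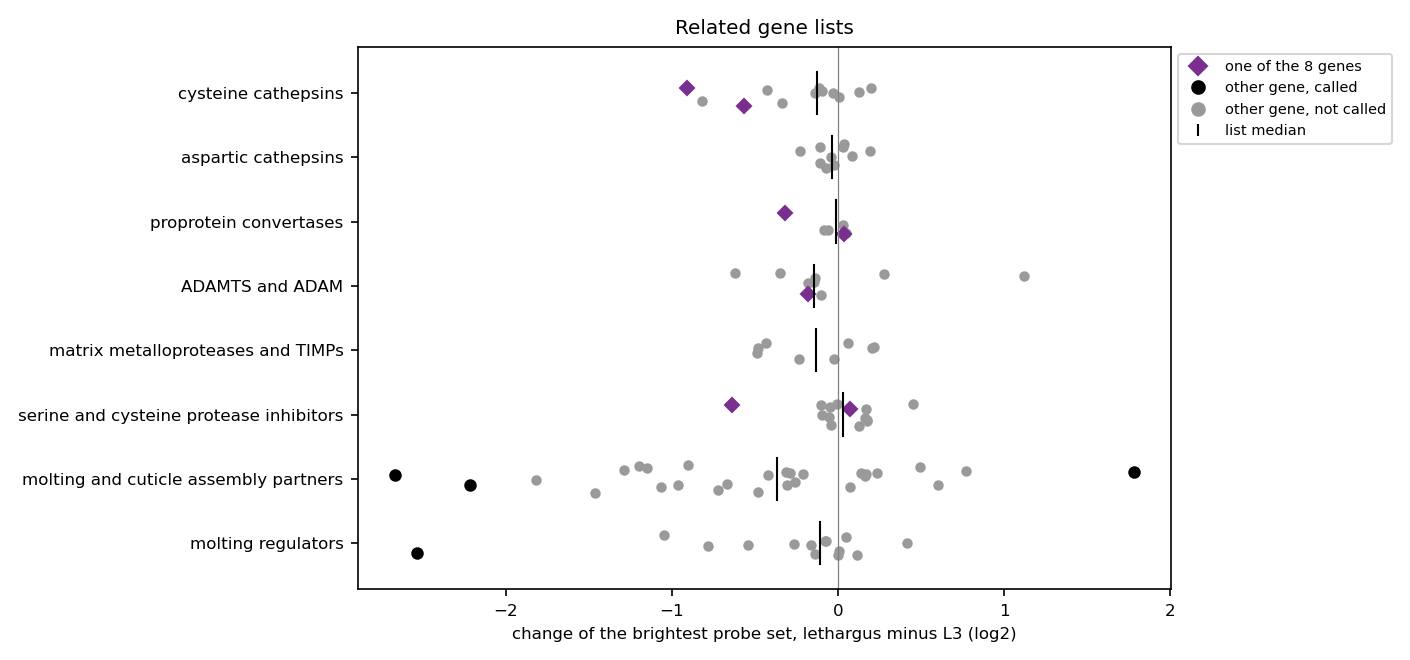
Change of the brightest probe set of each gene, lethargus minus L3 on the log2 scale (horizontal axis), for 8 related gene lists, with diamonds for the 7 genes described here that the lists hold (acn-1 is in none), black circles for other called genes, grey circles for other genes and a vertical stroke at the list median. Called genes appear in the molting lists alone, mlt-10, mlt-9, bed-3 and mlt-7, and 0 genes were called in the 6 protease and inhibitor lists.

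The genes whose levels ran most like these over the 6 arrays were ranked by Pearson r. This was done for the probe sets that spanned at least 1 on the log2 scale. The ranking took in 6733 genes with a brightest probe set whose mean lay above the highest control. Genes known only by a sequence name were left out, so the nearest genes and the counts below do not cover them. With 6 points a high r is common: 340 genes reached 0.9 for acn-1 188527_s_at and 167 for bli-4 175669_at. Nearest to bli-4 175669_at were idpp-11 (r 0.994), dct-5 (r 0.993) and mcu-1 (r 0.991). idpp-11 rose in lethargus by 2.82 and dct-5 by 5.49 on the log2 scale, while mcu-1 had a change of 0.35 that was not called. Nearest to acn-1 were air-1, bus-12 and bus-4 on 173654_at (r 0.994, 0.994 and 0.993) and oac-29, cbn-1 and bus-12 on 188527_s_at (r 0.998, 0.997 and 0.996). bus-12, which acts in making the surface coat and had a change of -1.39 (adjusted p 0.160), was the gene that both probe sets of acn-1 shared. For cpz-1 they were natb-1, cdl-1 and cdk-1 (r 0.994, 0.993 and 0.992), and for cpl-1 173990_s_at they were pcn-1, pri-1 and pbs-7 (r 0.996, 0.995 and 0.995). pcn-1, which encodes the sliding clamp of DNA replication, had a change of -0.36, and cdk-1, a cell cycle kinase gene, had -0.55, neither of them called. For mlt-11 the collagen gene dpy-3 was among the nearest on 194086_at (r 0.997), beside hadb-1 (r 0.998) and cht-1 (r 0.991). The 171847_s_at probe set of mlt-11 ran with calu-1, the collagen gene col-128 and ced-8 (r 0.994, 0.994 and 0.991), and 194187_x_at with mcm-4, fmo-5 and stt-3 (r 0.988, 0.986 and 0.985). bli-5 ran with idpp-7, pugs-4 and unc-41 (r 0.997, 0.991 and 0.990), and kpc-1 173098_at with dyn-1, oxa-1 and vha-13 (r 0.998, 0.993 and 0.992). These values describe the 6 arrays, which share the same contrast between groups and the same low L3 replicate 3.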

How the data were processed

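The deposited table holds log2 expression values per probe set of the Affymetrix C. elegans Genome Array, which the authors made with RMA, per the submitters' processing notes. The sources used here give no version or background settings. Per the labels' protocols, RNA was amplified as cDNA before labelling, and 1 of 4 samples per stage was set aside for RNA quality. The labels number the pools without saying whether they were grown separately, so the p-values cover only the spread between pools. Of 22625 probe sets, 77 controls were left out. The levels were compared without further normalization by limma 3.58.1 in R 4.3.3 (lmFit, eBayes, group as the only term, Benjamini-Hochberg over 22548 probe sets, two-sided). Changes are log2 differences, lethargus minus L3. The design text names R/maanova, which was not run. The fit was tested on simulated data. The 24 Bacillus subtilis probe sets ranged from 2.42 to 5.73. The array annotation named 1 gene for 20766 probe sets, and genes in lists stand by their brightest probe set. No genome build is named, so no coordinates are given, and sequences were not used here. The number of arrays limits the precision. Genes and lists were chosen with earlier results of these data known. Named genes are the 8 genes, the called genes of each list (at most 4, or the smallest p), egl-3, aex-5, cpi-1, cpi-2, nhr-23, nhr-25 and mlt-10, and the 3 nearest genes by r. Alternatives were filters on dim probe sets, a common median, a second quantile normalization, a variance trend, array weights, a replicate block, the probe set chosen and each array left out.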

Additional observations from a re-analysis of the deposited data

How the results depend on the processing

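The rise of bli-4 175669_at kept its direction and call in 11 of 13 alternatives, with adjusted p-values from 0.00537 to 0.0788 and changes from 1.18 to 1.32. The replicate block ended it (adjusted p 0.0788), and so did leaving out lethargus replicate 1 (0.0501). The labels do not say whether same-numbered pools belong together, and the main fit did not pair them. The deviations of same-numbered pools correlated at 0.26, -0.24 and -0.29, which does not settle the question. With the replicate block 0 of the 25 probe sets were called higher and 0 lower, against 56 higher and 3 lower of all probe sets, and 0 list genes in either direction. With arrays left out in turn, 0 to 1 of the 25 were called higher and 0 to 3 lower, the 3 without L3 replicate 3. Over all probe sets the counts ran from 75 to 573 higher and 0 to 563 lower, and over the list genes from 0 to 1 higher and 0 to 12 lower, against 1 and 3. Array weights gave 262 higher and 231 lower over all probe sets and 6 list genes lower. The lowest weights were 0.68 for lethargus replicate 3, 0.71 for L3 replicate 3 and 0.79 for lethargus replicate 1. A variance trend gave 77 lower, and the mean of probe sets left 1 list gene lower. The causes were not tested. Of 326 values of the 25 probe sets under alternatives, 304 kept direction and call, and 17 values from 7 uncalled probe sets changed sign, each at most 0.25 in size. With array weights those that changed sign were bli-4 172006_x_at (-0.031), bli-5 (-0.13) and mlt-11 179352_at (0.024), and also egl-3 (-0.0041) and nhr-25 (-0.12). cpl-1 171886_x_at had -0.023 after a second quantile normalization and -0.0018 with a common median, where nhr-25 had -0.026 and -0.011. The mean of probe sets gave -0.022 for egl-3 and -0.065 for nhr-25. With arrays left out, cpl-1 171886_x_at ran from -0.021 to 0.031, bli-4 172006_x_at from -0.10 to 0.13, 172870_x_at from -0.11 to 0.063 and 175666_s_at from -0.19 to 0.085. bli-5 ran from -0.25 to 0.28, mlt-11 179352_at from -0.097 to 0.021, kpc-1 173098_at from -0.40 to 0.11, egl-3 from -0.032 to 0.082, aex-5 from -0.12 to 0.25, nhr-23 from -0.049 to 0.33 and nhr-25 from -0.26 to 0.26. No change can be read from cpl-1 171886_x_at and mlt-11 179352_at, which lay at background on all 6 arrays.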
